A study of Mus musculus with 6 samples.

Results

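The genes described here are 9 transcripts that mark microglia, the resident macrophages of the brain: Csf1r, Cx3cr1, P2ry12, C1qa, C1qb, C1qc, Trem2, Tyrobp and Aif1. They were chosen by symbol, each had 1 row, and they are 9 of the 26195 genes with at least 1 read in the table. All 9 passed the filter on low counts, which left 15457 genes for testing. The 6 libraries were made from cerebellum RNA of C57BL/6 mice aged 6 days. The labels name 3 libraries as wild type (1 female, 2 male) and 3 as SnoN cKO (1 female, 2 male), a conditional knockout of SnoN, the transcriptional regulator encoded by Skil. The labels give each library a tag of its own but do not say outright that each came from a separate animal. They name neither the Cre driver nor the deleted exons, so whether microglia themselves carried the deletion is not known. SnoN is known as a partner of Smad proteins that restrains signalling by TGF-beta, a factor on which microglia depend for their resident identity, and the series concerns its part in the growth of granule neuron precursors.

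Microglia enter the brain early in development from the yolk sac and, in the early postnatal cerebellum, clear dying cells and touch growing synapses. Csf1r is the receptor kinase whose signal keeps them alive, Cx3cr1 receives the neuronal chemokine fractalkine, and P2ry12 senses nucleotides released by other cells. C1qa, C1qb and C1qc encode the 3 chains of C1q, which starts the classical complement cascade and is made in the brain largely by microglia. Trem2 is a lipid-sensing receptor that signals through the adaptor DAP12, the product of Tyrobp, and Aif1 encodes Iba1, the protein most often stained to see these cells. Macrophages of the meninges and vessels also make several of these transcripts, among them Csf1r, the C1q chains and Tyrobp. In RNA from whole tissue, fewer cells of a type and less RNA per cell cannot be told apart.

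Promoter sequence is shown for C1qb and C1qc, neighbours in the C1q gene cluster whose levels are contrasted here, and for Trem2, the receptor that pairs with Tyrobp. The sequences come from the RefSeq table of build GRCm38.p6 and run 5′ to 3′ on the strand of the gene. They end before the first annotated base of the gene, which left 250 bases for C1qb (chr4:136886201-136886450, minus strand), 99 for C1qc (chr4:136893066-136893164, minus strand) and 250 for Trem2 (chr17:48346151-48346400, plus strand). Capitals mark GAGGAA, the core of the site that the myeloid factor PU.1 is known to bind, or its reverse complement TTCCTC.
C1qb: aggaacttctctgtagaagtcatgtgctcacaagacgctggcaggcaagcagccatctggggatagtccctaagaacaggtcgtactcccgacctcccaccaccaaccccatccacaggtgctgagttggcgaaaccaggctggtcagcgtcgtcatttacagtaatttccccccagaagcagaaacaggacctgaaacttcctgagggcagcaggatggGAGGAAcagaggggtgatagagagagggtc
C1qc: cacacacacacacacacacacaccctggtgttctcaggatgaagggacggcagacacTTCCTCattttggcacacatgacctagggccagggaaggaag
Trem2: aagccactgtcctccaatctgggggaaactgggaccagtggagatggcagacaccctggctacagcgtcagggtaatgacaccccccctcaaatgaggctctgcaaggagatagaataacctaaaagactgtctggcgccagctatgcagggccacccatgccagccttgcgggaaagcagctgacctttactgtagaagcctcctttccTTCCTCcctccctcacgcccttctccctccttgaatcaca
Csf1r, C1qa and Tyrobp were not searched: windows on the chromosome of Csf1r were left out, and none was available for C1qa and Tyrobp. That left 6 of the 9 genes (Aif1, C1qb, C1qc, Cx3cr1, P2ry12 and Trem2). In the 250 bases before the start site, GAGGAA stood on either strand in 4 of these 6, in Aif1, C1qb, C1qc and Trem2, with no overlap between matches. Among all 32851 promoter windows of that length, with no chromosome left out, 23.3% held it. The stretch shown for C1qc stops upstream of its tabulated start site, where another annotated transcript begins. The first base of the match lay 30 bases before the start site in C1qb, 193 in C1qc and 40 in Trem2. A match describes the letters only and does not show binding.

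Libraries held between 12605870 and 17757711 reads on genes. The targeted gene Skil was lower in every SnoN cKO library, at 76.1 ± 1.39 CPM against 88.6 ± 1.003 CPM in wild type (SD, n = 3 each), where CPM is the count over the scaled library total. Its log2 fold change was -0.22 (SE 0.04), with an unadjusted p of 0.000379 and an adjusted p of 0.637 by edgeR. SnoN cKO 1, labelled female, held 35 reads of Xist and 1146 of the Y-linked gene Ddx3y, and SnoN cKO 2, labelled male, held 37467 and 0, so both went against their labelled sex. SnoN cKO 2 also had 17.3 CPM of Ttr, the main transcript of the choroid plexus, against 1641 to 3209 CPM in the other 5 libraries. In SnoN cKO 3 the ribosomal RNA-related entry Gm42418 took 3.75% of all reads, against 0.0512% to 0.692% elsewhere. Both libraries with a mismatched sex label are SnoN cKO, and in both Skil lay below every wild type library. A swap between these 2 would leave the genotype groups unchanged, but how the mismatch arose was not tested.

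Reads on the 9 genes were a small part of these libraries, which does not measure the share of all microglial RNA. The 9 genes together held 1942 to 2747 reads in SnoN cKO and 1916 to 2327 in wild type, between 0.0150% and 0.0182% of a library. Further markers of resident microglia were present in all 6 libraries. Tmem119, a surface protein of resident microglia, lay between 4.34 and 5.38 CPM, and Fcrls between 21.6 and 24.6 CPM. Markers of blood leucocytes were close to 0, with a summed level of 2.74 to 6.77 CPM over 18 listed genes and 2 of the 18 above the filter on low counts. Border macrophage markers were present, with a summed level of 195 to 245 CPM over 12 listed genes, and the mannose receptor gene Mrc1 at 30.1 to 39.2 CPM. Most of that sum came from Stab1 (68.7 to 87.0 CPM) and Dab2 (59.6 to 77.1 CPM).

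Compared per length, the 3 C1q chains were the most abundant of the 9 transcripts. Levels per 1000 bases used the longest coding transcript in GENCODE M21, since the labels do not name the annotation behind the counts. C1qc stood at 19.7 ± 1.64 CPM per 1000 bases (SD, n = 6 libraries), C1qb at 17.2 ± 1.96 and C1qa at 16.7 ± 1.34. The ranges of these 3 overlapped, and C1qb was above C1qa in 4 of 6 libraries. Tyrobp followed at 12.2 ± 1.46 and Csf1r at 10.6 ± 1.18 CPM per 1000 bases, again with overlapping ranges. Trem2 (6.52 ± 1.21) and Cx3cr1 (6.24 ± 0.492) could not be ordered, since each was the higher in 3 of 6 libraries. P2ry12 stood at 3.03 ± 0.406 and Aif1 at 2.06 ± 0.146 CPM per 1000 bases. The ranges over libraries did not overlap between C1qa and Tyrobp, Csf1r and Trem2, Cx3cr1 and P2ry12, or P2ry12 and Aif1.

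**Figure D1:**
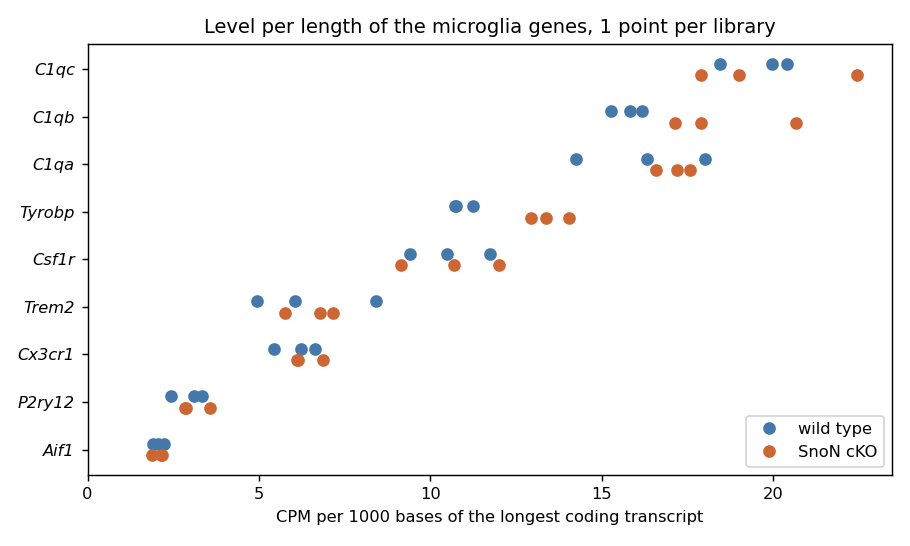
Level of each microglia gene in CPM per 1000 bases of its longest coding transcript (x axis), with 1 point per library, wild type in blue and SnoN cKO in orange. The C1q chains lie highest, with means of 16.7 to 19.7, and Aif1 lowest, with a mean of 2.06.

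Among the receptors, neither genotype stood apart. Csf1r was at 55.2, 49.2 and 44.2 CPM in wild type 1, 2 and 3 and at 42.9, 56.4 and 50.2 CPM in SnoN cKO 1, 2 and 3. The lowest and the highest of the 6 values were thus both SnoN cKO libraries, and the groups overlapped. Its log2 fold change was 0.01 (SE 0.10, 95% interval -0.22 to 0.24, adjusted p = 0.984 by edgeR's quasi-likelihood test). Csf1r varied within genotypes far more than its reads required: the spread was 12.4% of its mean, where counting alone gives 3.76%.

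Cx3cr1, the fractalkine receptor, was steadier. Its levels were 27.9, 24.4 and 29.8 CPM in wild type libraries, against 27.6, 30.9 and 27.5 CPM in SnoN cKO libraries. The wild type values spanned 2 of the 3 SnoN cKO values, and the log2 fold change was 0.07 (SE 0.09, 95% interval -0.12 to 0.26). P2ry12 measured 7.28, 7.84 and 5.69 CPM in wild type libraries, against 6.74, 8.39 and 6.69 CPM in SnoN cKO libraries, with a log2 fold change of 0.06 (SE 0.16, 95% interval -0.28 to 0.41). Wild type 3 was the lowest and SnoN cKO 2 the highest. The adjusted p was 0.841 for Cx3cr1 and 0.926 for P2ry12 by edgeR.

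Exons of all 3 receptor genes overlap exons of another gene on the opposite strand in GENCODE M21: Hmgxb3 for Csf1r, Gm33858 for Cx3cr1 and Med12l for P2ry12. The NEBNext Ultra kit used for the libraries keeps no record of the strand, so reads in the shared stretches could not be assigned by strand. Med12l, a Mediator subunit gene, measured 64.3 ± 1.82 CPM in wild type libraries, against 64.4 ± 1.09 CPM in SnoN cKO libraries, well above P2ry12. Hmgxb3 measured 49.8 ± 0.371 CPM in wild type libraries, against 51.5 ± 5.39 CPM in SnoN cKO libraries (SD, n = 3 each). Their part in the receptor counts was not tested.

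**Figure D2:**
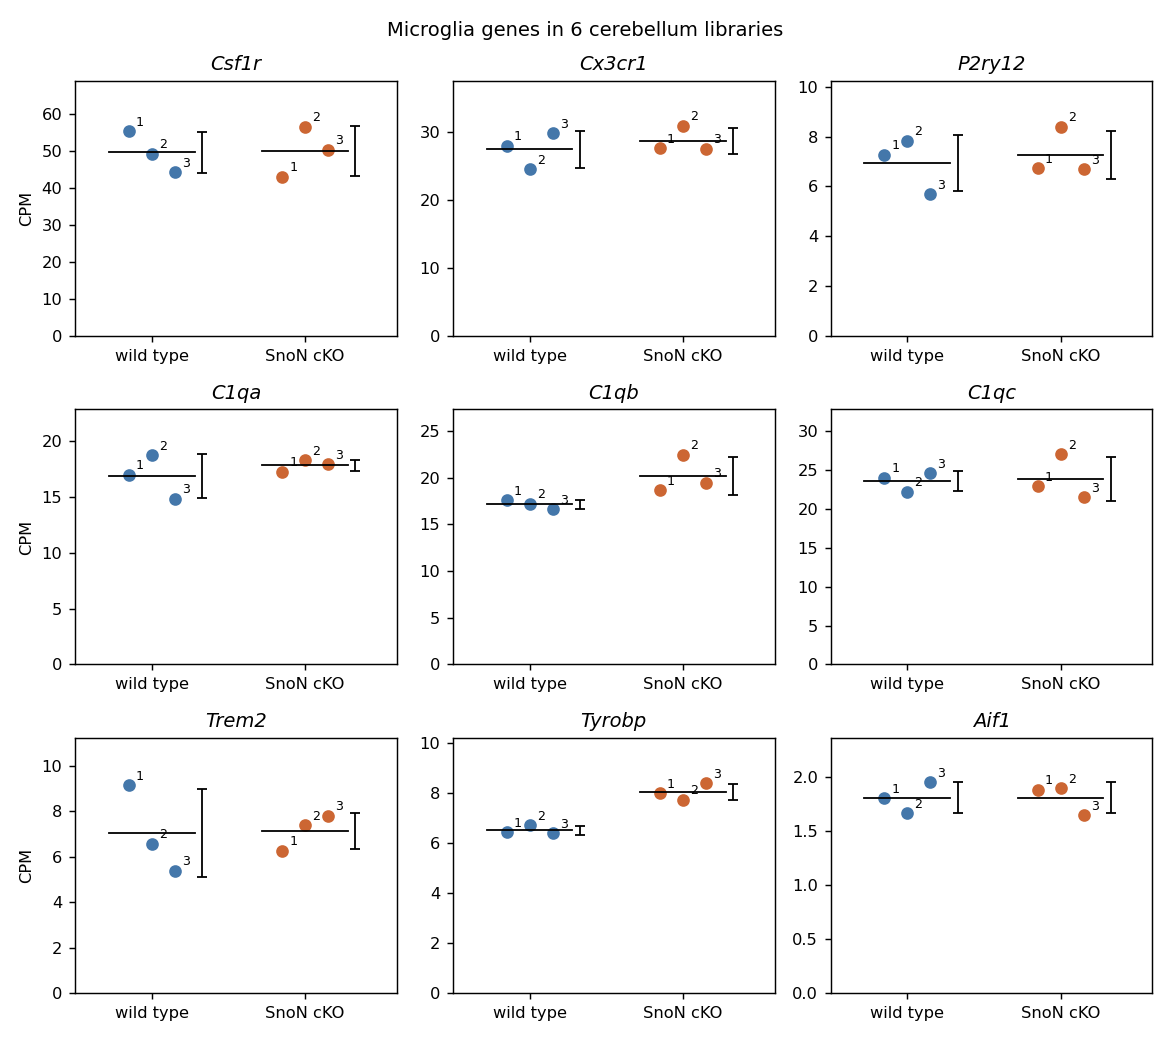
CPM (y axis, from 0) of each of the 9 microglia genes in wild type (blue) and SnoN cKO (orange) libraries; points carry the replicate number, horizontal lines are means and bars are SD over 3 libraries. The genotypes are separate for Tyrobp and C1qb and overlap for the other 7 genes.

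Of the C1q chains, C1qb was higher in every SnoN cKO library. C1qb measured 17.6, 17.2 and 16.6 CPM in wild type libraries, against 18.6, 22.5 and 19.5 CPM in SnoN cKO libraries. The highest wild type value lay below the lowest SnoN cKO value, while SnoN cKO 2 stood above the other 2 SnoN cKO libraries. The difference of means was 17.8%, a log2 fold change of 0.24 (SE 0.09, 95% interval 0.03 to 0.45), with an unadjusted p of 0.0295 and an adjusted p of 0.637 by edgeR. C1qb therefore did not pass the test over all genes. Without SnoN cKO 2 its log2 fold change was 0.15 (unadjusted p = 0.119, adjusted p = 0.939 by edgeR).

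The other chains of the same protein did not separate. C1qa measured 17.0, 18.7 and 14.8 CPM in wild type libraries, against 17.2, 18.3 and 17.9 CPM in SnoN cKO libraries (log2 fold change 0.08, SE 0.10). C1qc measured 24.0, 22.2 and 24.6 CPM in wild type libraries, against 22.9, 27.0 and 21.5 CPM in SnoN cKO libraries (log2 fold change 0.01, SE 0.09). The genotypes overlapped in both, and the adjusted p by edgeR was 0.846 for C1qa and 0.978 for C1qc. The 95% intervals were -0.15 to 0.30 for C1qa and -0.20 to 0.22 for C1qc, so differences of the size seen in C1qb were within the first of them.

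Within the C1q reads of a library, the share of C1qb was 30.04%, 29.6% and 29.7% in wild type and 31.7%, 33.2% and 33.1% in SnoN cKO. This share does not depend on how libraries are scaled, and the groups did not overlap. The matching shares of C1qc were 41.0 ± 2.85% in wild type and 38.4 ± 1.71% in SnoN cKO (SD, n = 3 each), and those of C1qa 29.2 ± 2.89% and 28.9 ± 1.75%. Both overlapped between genotypes. The ratio of C1qb to C1qc reads was 0.733, 0.775 and 0.676 in wild type and 0.815, 0.832 and 0.905 in SnoN cKO. That of C1qb to C1qa reads overlapped, at 1.04, 0.918 and 1.12 in wild type and 1.08, 1.23 and 1.09 in SnoN cKO. These shares and ratios were chosen with the C1qb result known and carry no test. Summed over the 3 chains, the level measured 58.6, 58.1 and 56.0 CPM in wild type libraries, against 58.7, 67.7 and 58.9 CPM in SnoN cKO libraries, so that 2 of the 3 SnoN cKO libraries lay just above wild type 1.

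Tyrobp, the adaptor that carries the Trem2 signal, had the largest relative difference between genotype means of the 9 genes. Its levels were 6.42, 6.71 and 6.39 CPM in wild type libraries, against 7.99, 7.71 and 8.39 CPM in SnoN cKO libraries. All SnoN cKO libraries lay above all wild type libraries, and the values within each genotype were close together. The difference of means was 23.4%, a log2 fold change of 0.30 (SE 0.11, 95% interval 0.05 to 0.55), with an unadjusted p of 0.0220 and an adjusted p of 0.637 by edgeR, so Tyrobp did not pass over all genes. The counts behind it were 82, 101 and 82 reads in wild type and 102, 114 and 143 in SnoN cKO. With a mean of 104 reads, counting alone gives a spread of 9.81%, whereas the spread found within genotypes was 3.71%. The libraries of a genotype thus lay closer together than counting error alone gives on average.

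Trem2, the receptor partner of Tyrobp, overlapped between genotypes. Its levels were 9.15, 6.58 and 5.38 CPM in wild type libraries, against 6.27, 7.38 and 7.80 CPM in SnoN cKO libraries. Wild type 1 was the highest and wild type 3 the lowest of the 6, so the wild type range enclosed all SnoN cKO values. The log2 fold change was 0.03 (SE 0.19, 95% interval -0.39 to 0.45, adjusted p = 0.972 by edgeR). The value depended on single libraries, at 0.26 without wild type 1 and -0.12 without wild type 3. The ratio of Tyrobp to Trem2 reads ran from 0.701 in wild type 1 to 1.28 in SnoN cKO 1, with overlapping genotypes.

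Aif1 was the least abundant of the 9 genes, at 23 to 28 reads a library. Its levels were 1.80, 1.66 and 1.95 CPM in wild type libraries, against 1.88, 1.89 and 1.64 CPM in SnoN cKO libraries. The means were level, with a log2 fold change of 0.00 (SE 0.21, adjusted p = 0.9999 by edgeR), but the 95% interval of -0.48 to 0.48 was the widest of the 9, and smaller differences were not detectable at this depth.

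**Figure D3:**
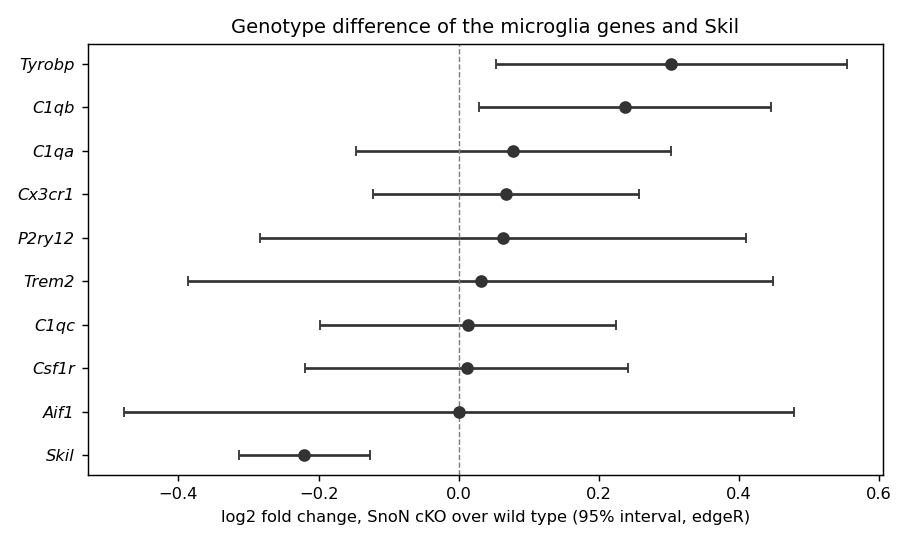
Log2 fold change of SnoN cKO over wild type (x axis) for the 9 microglia genes and Skil, with 95% intervals from edgeR's quasi-likelihood fit as bars and 0 as a dashed line. The intervals of Tyrobp and C1qb lie above 0 and that of Skil below it; the adjusted p of each was above the threshold.

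Over the 9 genes, 0 passed the adjusted threshold by edgeR, as did 0.0% of all genes tested. Over all genes limma-voom called 0 and DESeq2 4. None of these 4 was among the 9, but DESeq2 gave the 9 no adjusted p and so could not have called them. At an unadjusted p under 0.05 there were 2 of 9, Tyrobp and C1qb, both higher in SnoN cKO, against 3.21% of all genes in that direction, 4.47% in the other and 7.68% in either. That count was 0 with DESeq2 (unadjusted p = 0.127 for Tyrobp and 0.0731 for C1qb). By edgeR it was 1, Tyrobp, with libraries scaled by their totals, without wild type 1, 2 or 3, without SnoN cKO 2, or with SnoN cKO 1 and 2 both left out, and 1, C1qb, without SnoN cKO 3. The same 2 of 9 were separate between genotypes and higher in SnoN cKO, against 6.95% of all genes in that direction and 13.7% in either. All 9 log2 fold changes were positive, between 0.0004 and 0.30, with a median of 0.06, whereas 49.0% of all genes tested were positive and their median was -0.002. Lists of other cell types were split in sign or ran one way too. Positive and negative signs were 6 and 4 for astrocytes and Bergmann glia and 7 and 3 for endothelium. They were 3 and 8 both for oligodendrocytes and for border macrophages. All 10 genes of granule precursors (median 0.11) and all 8 of Purkinje cells (median 0.08) were positive. In turn 0 of 10 genes were positive for meningeal fibroblasts (median -0.12), 0 of 10 for choroid plexus (median -0.30) and 0 of 9 tested for brainstem (median -1.19). The count of positive signs was 5 of 9 without wild type 2, without wild type 3 or without SnoN cKO 2, and 6 of 9 with SnoN cKO 1 and 2 both left out or with libraries scaled by their totals alone. Scaling by totals moved the median of all genes by less than 0.1, to -0.02. The median of the 9 was 0.01 without wild type 2 and likewise 0.01 without SnoN cKO 2. By labelled sex 0 of the 9 genes were called, against 0.00647% of all genes tested (edgeR, adjusted p), and since 2 libraries went against their labelled sex, no sex difference is read from this.

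SnoN cKO 2 stood highest for most of the 9 genes. In that library all 9 genes lay above their own mean over the 6 libraries, and 5 of them, Csf1r, Cx3cr1, P2ry12, C1qb and C1qc, had their highest level there. Wild type 3 held the lowest level of 5 genes. On the log2 scale the mean departure of the 9 genes was 0.15 in SnoN cKO 2, 0.04 in wild type 1, 0.02 in SnoN cKO 3, -0.03 in SnoN cKO 1, -0.05 in wild type 2 and -0.13 in wild type 3. The summed level of the 9 genes measured 166, 155 and 149 CPM in wild type libraries, against 152, 180.4 and 161 CPM in SnoN cKO libraries. The groups overlapped, and the difference of means was 4.96%, with 157 ± 8.76 CPM in wild type libraries, against 165 ± 14.5 CPM in SnoN cKO libraries (SD, n = 3 each). Without SnoN cKO 2 the log2 ratio of the summed levels was -0.002, against 0.07 with all libraries. The highest sums, in SnoN cKO 2 and wild type 1, were those of the libraries with many Xist reads (37467 and 33319) and 0 of Ddx3y. Elsewhere Xist had 34 to 56 reads. Of the single genes, only Csf1r had its highest values in both of these libraries. The part of sex in this pattern was not tested.

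**Figure D4:**
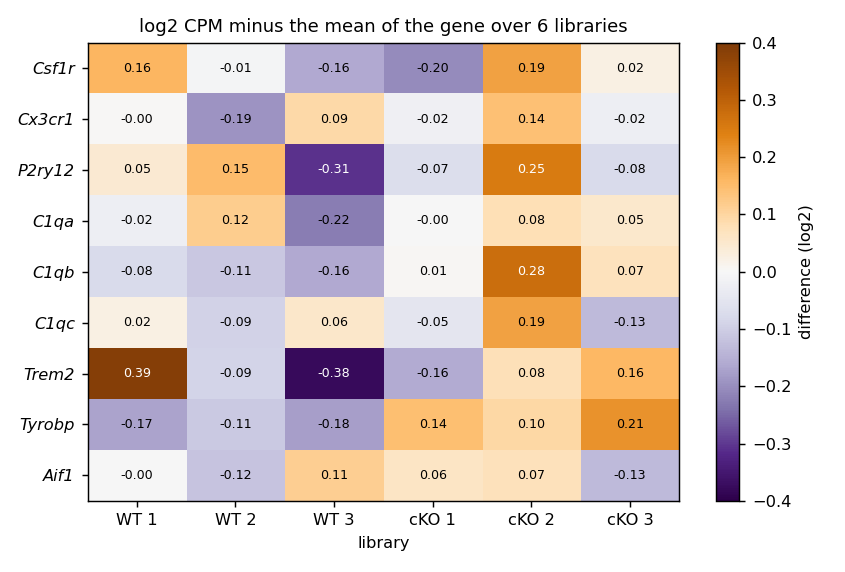
Log2 CPM of each microglia gene (rows) in each library (columns), minus the mean of that gene over 6 libraries; orange is above and purple below the mean, and the numbers are the differences in log2 units. The column of SnoN cKO 2 is above 0 in all 9 genes, and the largest departures are those of Trem2 in wild type 1 (0.39) and wild type 3 (-0.38).

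SnoN cKO 2 was also the library with least choroid plexus RNA, at 181 CPM summed over 10 listed genes against 2140.0 to 3975 CPM elsewhere. Its brainstem list was the lowest too, at 39.0 CPM over 18 listed genes against 46.8 to 81.8 CPM. The single gene Slc6a5 made up most of that sum, at 34.4 CPM in SnoN cKO 2 against 36.9 to 54.1 CPM elsewhere. Its astrocyte and Bergmann glia list was the highest, at 4532 CPM against 4098 to 4317 CPM, as was its endothelial list, at 546 CPM against 503 to 517 CPM. It was also the highest for granule precursors, at 4689.9 CPM against 4028 to 4456 CPM, and for Purkinje cells, at 2275 CPM against 1908 to 2119.9 CPM. Its oligodendrocyte list was the lowest, at 1374 CPM against 1562 to 1649 CPM. The part of such differences in the microglial values was not tested. Wild type 3, lowest for 5 of the 9 genes, had the most red cell RNA, at 223 CPM against 99.3 to 198 CPM elsewhere. Its part was not tested either.

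Genes whose library pattern was most like the mean of the 9 were sought among 12289 genes at a mean of at least 5 CPM. The measure was the root mean square difference between log2 profiles over 6 libraries, each centred on its own mean. The nearest were Bcas1 (0.02), an oligodendrocyte lineage gene, then the ribosomal protein gene Rpl29, Fam118a, Adck5 and Prmt9, an arginine methyltransferase gene, each at 0.02. No other microglial gene was among them. The 9 genes themselves differed from their own mean by 0.08 (C1qb) to 0.19 (Trem2), so that absence is not read as a result.

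**Figure D5:**
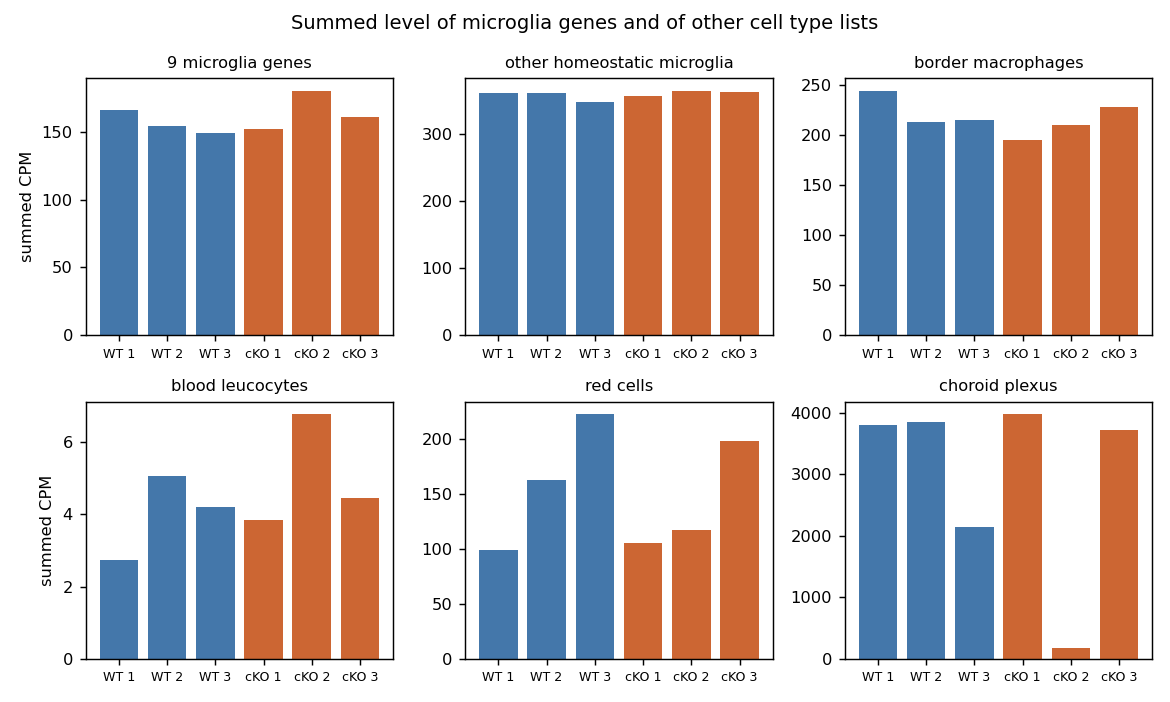
Summed CPM (y axis, from 0) in each library for the 9 microglia genes and 5 other lists, wild type in blue and SnoN cKO in orange. The 9 genes are highest in cKO 2, at 180.4 CPM, where the choroid plexus list is lowest, at 181 CPM.

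A wider list of 40 genes of resident microglia was divided. All 40 were tested, 0 passed the adjusted threshold in either direction, and 22 log2 fold changes were positive and 18 negative, with a median of 0.05. Their summed level measured 356 ± 7.64 CPM in wild type libraries, against 361 ± 4.14 CPM in SnoN cKO libraries, a difference of 1.32% within overlapping groups. It was 364 CPM in SnoN cKO 2, against 347 to 362 CPM in the other libraries, so SnoN cKO 2 was again the highest, by a smaller margin. At an unadjusted p under 0.05 there were 3 higher and 2 lower genes of 40, against 3.21% higher and 4.47% lower of all genes tested.

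Among them, Itgam, which encodes the complement receptor chain CD11b, measured 6.18, 6.58 and 5.14 CPM in wild type libraries, against 7.05, 8.46 and 7.33 CPM in SnoN cKO libraries. All SnoN cKO values lay above wild type (log2 fold change 0.35, SE 0.14). Runx1, a transcription factor of blood and microglial precursors, measured 1.153 ± 0.0519 CPM in wild type libraries, against 1.83 ± 0.353 CPM in SnoN cKO libraries. Slc2a5, a fructose transporter found in microglia, measured 1.70 ± 0.312 CPM in wild type libraries, against 0.9995 ± 0.217 CPM in SnoN cKO libraries. In each of these 3 genes the genotypes did not overlap, and none passed edgeR's test (adjusted p = 0.637 for each). The lysosomal protein gene Laptm5, among the most abundant of the list, measured 23.2 ± 2.55 CPM in wild type libraries, against 25.4 ± 0.840 CPM in SnoN cKO libraries.

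Genes of the phagocytic state that microglia take in early postnatal white matter were split in sign. Of 22 listed genes 20 were tested, 12 had positive and 8 negative log2 fold changes, and the median was 0.01. The tetraspanin gene Cd9, which many glia express, measured 143, 141 and 147 CPM in wild type libraries, against 160.0, 156 and 157 CPM in SnoN cKO libraries. Those groups were separate, with a log2 fold change of 0.13 (SE 0.04, unadjusted p = 0.00860, adjusted p = 0.637 by edgeR). On the log2 scale the lysosomal marker Cd68 was higher by 0.14 (SE 0.14) and the lysozyme gene Lyz2 by 0.20 (SE 0.18), with overlapping genotypes. Fabp5, a fatty acid carrier that glia share, stood at 0.10 (SE 0.06) on that scale. Apoe, Ctsb and Ctsd, abundant transcripts that astrocytes and other cells share, had log2 fold changes of -0.03, -0.02 and -0.06. Cst7 and Ccl4, genes of strongly activated microglia, had at most 5 reads in a library and were not tested.

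Around the Trem2 receptor, 0 kinases or effectors passed the adjusted threshold. Of 22 listed genes 19 were tested, 12 were positive and 7 negative, and the median log2 fold change was 0.05. By edgeR 0 of the 19 had an unadjusted p under 0.05, against 7.68% of all genes tested in either direction. With so few genes, a count of 0 lies near that share. Syk, the kinase that docks on phosphorylated DAP12, measured 10.8, 10.7 and 8.89 CPM in wild type libraries, against 12.1, 11.2 and 10.6 CPM in SnoN cKO libraries. The log2 fold change was 0.14 (SE 0.10) for the kinase gene Lyn, 0.29 (SE 0.24) for the adaptor gene Blnk and -0.15 (SE 0.13) for the phospholipase gene Plcg2. Adam10, whose protease sheds Trem2, stood at -0.03 (SE 0.05) on that scale and the adaptor gene Grb2 at 0.01 (SE 0.04). Hcst, the sister adaptor DAP10 that lies beside Tyrobp in the genome, had at most 4 reads in a library, so its reads were few beside the 82 to 143 of Tyrobp.

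The rest of the complement cascade had more negative than positive differences. Of 28 listed genes 24 were tested, 9 positive and 15 negative, with a median log2 fold change of -0.06. At an unadjusted p under 0.05 there were 2, both higher in SnoN cKO: Itgam and C5ar1, the receptor for the C5a fragment (adjusted p = 0.637 by edgeR for each). Of all genes tested, 3.21% were past that p in this direction and 7.68% in either. C5ar1 measured 0.861, 0.863 and 0.779 CPM in wild type libraries, against 1.41, 1.15 and 1.58 CPM in SnoN cKO libraries, 10 to 27 reads a library. The protease gene C1ra, whose product joins C1q, had at most 12 reads and C1rb had 0. C3, the central component, measured 1.27 ± 0.321 CPM in wild type libraries, against 0.909 ± 0.112 CPM in SnoN cKO libraries. Among regulators the log2 fold change was -0.15 (SE 0.08) for Csmd3 and -0.53 (SE 0.27) for Cd59a. The most abundant of the list, Csmd2, Clu and Cd93, stood at -0.06, -0.21 and 0.05 on that scale, with 65.4 CPM of Clu in SnoN cKO 2 against 103 to 144 CPM elsewhere.

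Ligands for the microglial receptors were measured in the same libraries, from neurons and other cells. Of 13 listed genes, all tested, 5 were positive and 8 negative. At an unadjusted p under 0.05 by edgeR there were 0, near the share of 7.68% of all genes tested in either direction. For the ligands of Csf1r the log2 fold change was 0.06 (SE 0.07) in Csf1 and 0.15 (SE 0.20) in Il34. Cx3cl1, which encodes fractalkine, the ligand of Cx3cr1, measured 33.5, 35.9 and 26.6 CPM in wild type libraries, against 26.5, 15.4 and 29.3 CPM in SnoN cKO libraries. The genotypes overlapped and SnoN cKO 2 was far below the other libraries. Its log2 fold change was -0.43 (SE 0.20, adjusted p = 0.654 by edgeR). Cd200, a neuronal surface signal that restrains microglia, was likewise lowest in SnoN cKO 2, at 74.2 CPM against 87.9 to 99.8 CPM (log2 fold change -0.17, SE 0.08). Tgfb2, Cd47 and Gas6 stood at 0.08 (SE 0.05), -0.08 (SE 0.05) and -0.12 (SE 0.09) on the log2 scale.

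Border macrophages, the cell type that shares most of these transcripts, had 3 positive and 8 negative log2 fold changes among 11 tested of 12 listed genes. The median was -0.08, and 0 had an unadjusted p under 0.05 by edgeR, near the share of 7.68% of all genes tested in either direction. Their summed level measured 245, 213 and 215 CPM in wild type libraries, against 195, 210.3 and 228 CPM in SnoN cKO libraries. SnoN cKO 2 lay within that range, below 4 of the other 5 libraries. Mrc1, Dab2 and Stab1 had log2 fold changes of -0.12, -0.12 and -0.08, and Ms4a7 of -0.60 (SE 0.32) at 0.705 to 1.56 CPM. Of the blood genes, Plac8 measured 0.553 ± 0.224 CPM in wild type libraries, against 0.831 ± 0.215 CPM in SnoN cKO libraries, and S100a9 had at most 22 reads, in SnoN cKO 2. The haemoglobin genes Hbb-bs and Hbb-bt, near-identical copies whose reads can be split between them, ranged from 58.6 to 127 CPM and from 10.2 to 31.0 CPM with overlapping genotypes.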

How the data were processed

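The 6 libraries came as 1 table of unnormalized counts, as the authors deposited it. The tools were STAR 2.0.4b, Subread and featureCounts 1.4.5 on mm9, per the submitters' processing notes, which name no annotation. Rows were read by gene symbol. Of 40254 Ensembl identifiers found in the reference names, 97 belonged to the symbol of their row, the last in row 98, because the identifier column loses step with the others where a symbol is repeated. Xist and 4 Y-linked genes split the libraries when read by symbol and not when read by identifier, so identifiers were not used. Repeated entries with the same 6 counts (140) were kept once.

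Counts were tested with edgeR 4.0.16 in R 4.3.3: filterByExpr at its minimum count of 10, TMM scaling, a two-sided quasi-likelihood test of genotype without covariates on 6 libraries, and Benjamini-Hochberg adjustment at 0.05 over 15457 genes. The common biological coefficient of variation was 9.71%. CPM are counts over TMM-scaled totals of the tested genes. SE is the log2 fold change over the root of F. The p-values set the genotype difference against the spread between these libraries, with the spread of each gene drawn towards that of all genes tested. That spread may be technical. Likeness used log2(CPM + 0.1). Alternatives were RLE scaling, library totals, no filter, DESeq2 1.42.0, limma-voom (limma 3.58.1), a replicate block, labelled sex, and leaving out each library; leaving out the ribosomal entries Gm42418 and Mir6236, or SnoN cKO 1 and 2 together, was chosen after seeing the data. The script was tested on simulated data.

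The 9 genes and the lists were chosen with earlier results of these data known. Named genes are the 9, Skil, up to 4 genes per pathway list with the smallest p and the 3 most abundant, the 2 most abundant blood and red cell genes, Ttr, the 5 nearest in pattern, and genes overlapping a member; Tmem119, Fcrls, C3, Csf1, Il34 and genes with too few reads were named after their values were seen. No coordinates of mm9 are given. Some genes that the rule names are not reported here.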

Additional observations from a re-analysis of the deposited data

How the results depend on the processing

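None of the 9 genes passed the adjusted threshold under any of the 15 alternatives, and DESeq2 gave no adjusted p for them. Tyrobp and C1qb stayed positive in all 15, between 0.28 and 0.36 and between 0.15 and 0.29 on the log2 scale. Their unadjusted p did not stay under 0.05. C1qb was above it in 7 of the 15: library totals (0.0523), DESeq2 (0.0731), without wild type 1 (0.0503), 2 (0.0597) or 3 (0.0816), without SnoN cKO 2 (0.119), and with SnoN cKO 1 and 2 left out (0.151), by edgeR unless named. Tyrobp was above it in 2, DESeq2 (0.127) and without SnoN cKO 3 (0.0505). The count of genes called over the whole table was 0, against 39 without the filter, 4 with DESeq2, 1 with labelled sex as a covariate, and 7 with SnoN cKO 1 and 2 both left out; it was 0 with each library left out. limma-voom called 0 and had 1207 genes at an unadjusted p under 0.05. Without the filter 1 gene of the other lists was called, Hoxa5 of the brainstem list.

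With libraries scaled by their totals, the log2 fold changes of Csf1r, C1qc and Aif1 turned to -0.0092, -0.0048 and -0.0197. Aif1 also turned with RLE scaling (-1e-05) and limma-voom (-0.0031). With SnoN cKO 1 and 2 both left out, P2ry12, C1qc and Aif1 stood at -0.0587, -0.1309 and -0.131. With 1 library left out at a time, the ranges were -0.0837 to 0.105 for Csf1r, -0.0062 to 0.1316 for Cx3cr1, -0.0572 to 0.1698 for P2ry12, -0.0053 to 0.168 for C1qa, -0.0879 to 0.0913 for C1qc, -0.1247 to 0.2585 for Trem2 and -0.0546 to 0.0772 for Aif1. The median of the 9 ranged from 0.0103 to 0.105 and the log2 ratio of summed levels from -0.0015 to 0.1234. The cause was not tested.

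Deviations of same-numbered libraries from their genotype means correlated at -0.04, -0.32 and -0.18, so no pairing by replicate number was seen. Deviations within a genotype sum to 0, which ties the correlations to each other, so they cannot exclude a pairing. With the replicate block 0 genes were called, Tyrobp was at 0.30 and C1qb at 0.24 (adjusted p = 0.836 by edgeR for each), and the median of the 9 was 0.07. By the interaction of labelled sex with genotype 0 of the 9 were called, as were 0.0% of all genes. SnoN cKO 1 and 2 went against their labelled sex, so no effect of sex is read from that interaction. Depth limits Aif1 most.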
